A study of Mus musculus with 82 samples.

Results

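The stretch of genome that follows the annotated end of a gene was examined in 3 nascent RNA assays of mouse embryonic stem (ES) cells. A gene entered when it was a RefSeq protein-coding gene of the GRCm38 build, was longer than 5 kb, lay on chromosomes 1 to 19 and had no other gene on its own strand within 20 kb downstream of its end. Of 15498 protein-coding genes of this length on these chromosomes, 8709 met the rule, and the other 6789 had a neighbour on the same strand. For each of the 8709 genes, sense reads were counted in 20 bins of 1 kb after the gene end and in the last 5 kb of the gene. The members were chosen by position alone, and no read was used to choose them. Their median length was 29.6 kb, against 21.3 kb for the genes with a same-strand neighbour.

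Every library came from V6.5 ES cells, an established line of mixed strain background, which were grown in serum with LIF on gelatin and carried no further genetic change or drug. In all 3 assays, a nuclear run-on with chain-terminating 3′-(O-propargyl) nucleotides labels RNA that a polymerase is making, and click chemistry joins the labelled 3′ end to a DNA adaptor. AGTuC (2 libraries of 1 batch) was run on nuclei in bulk with the sarkosyl detergent at a strength that lyses the nuclear membrane. inAGTuC (4 libraries of 3 batches) was run with less sarkosyl, which keeps nuclei intact, and the nuclei were then divided among barcoded wells. scGRO–seq used the conditions for intact nuclei, followed by sorting of single nuclei, and its reads were summed per batch over 2512 cells of 35 libraries in 10 batches. Because AGTuC was made in a single batch, assay and batch cannot be told apart in any comparison with it.

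When RNA polymerase II passes the poly(A) signal of a gene, most often AAUAAA or a close variant, the cleavage and polyadenylation machinery cuts the RNA shortly downstream and a poly(A) tail is added to the released transcript. The polymerase itself continues past the cut. In the torpedo account of termination, the exonuclease XRN2 degrades the uncapped RNA that is still attached to it, while the polymerase slows and finally leaves the DNA. Run-on assays map the polymerase itself, so reads are found past the annotated gene end, which is the end of the mature mRNA.

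After molecules found in more than 1 library had been left out, the scGRO–seq batches held 223119 to 4928371 reads and 11621648 in sum, the inAGTuC libraries held 623265 to 1462003 and the AGTuC libraries held 2231837 and 4755740. Batch Exp236 alone gave 4928371 of the scGRO–seq reads. Shared molecules made up 28.9% of the scGRO–seq reads, 16.8% of the inAGTuC reads and 0.330% of the AGTuC reads. The inAGTuC library of Exp234 stood apart. Only 47.4% of its reads on genes were sense (95% Wilson interval 47.3 to 47.5%, counting error only), against 67.95 to 80.04% in the other 3 inAGTuC libraries, 64.7 to 83.4% in the scGRO–seq batches and 85.3% and 85.0% in AGTuC. Most summary values of inAGTuC are therefore given with and without it, and counts over gene lists and correlations rest on all 4 libraries. The 10 markers of ES cells had a median of 10.4 RPKM (reads per kb of gene, scaled to library size) in AGTuC, 3.10 in inAGTuC and 2.59 in scGRO–seq, and the medians of the fibroblast, neural, endoderm and mesoderm lists were at most 0.54. A single neural marker, Sox1, reached 13.8 RPKM in AGTuC, and 4 of 6 fibroblast markers had no read there. Values of inAGTuC libraries are given below in the order Exp208 c12, Exp208 c14, Exp234 and Exp261, and scGRO–seq batches are given as the lowest, the median and the highest.

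The sequence just before the annotated end carried a poly(A) hexamer in most members. The hexamers were searched on the sense strand in the last 50 bases. AATAAA was found in 5543 of the 8709 members (63.6%), ATTAAA without AATAAA in 1272 (14.6%) and neither in 1894 (21.7%). The 366 members that held both were counted under AATAAA. Among all 15498 genes, AATAAA was found in 64.01%. The reverse complement TTTATT was found in the same window of 7.77% of members, and AATAAA was found in the 50 bases after the end in 2.50%. The median distance from the first base of the hexamer to the gene end was 24 bases. The last 30 bases of 7 members to which the results below return are printed here as they stand in GRCm38, 5′ to 3′ on the strand of the gene, with the hexamer nearest to the end in capitals. Rpl5 (chr5:107908976-107909005, plus strand), Dhx9 (chr1:153455758-153455787, minus strand), Zfp42 (chr8:43295067-43295096, minus strand) and Scaf8 (chr17:3198830-3198859, plus strand) carry AATAAA, Hnrnpa3 (chr2:75669378-75669407, plus strand) carries ATTAAA, and Zc3h12a (chr4:125118414-125118443, minus strand) and Cpsf2 (chr12:102005964-102005993, plus strand) carry neither.
Rpl5: actttttAATAAAtgagtcatttgaattta
Dhx9: aatagaaAATAAAgtattatactgaaaatt
Zfp42: tgtttcaaaataaaaggaAATAAAacacta
Scaf8: agatgccAATAAAacttacttgtttgataa
Hnrnpa3: ccttttcATTAAAatatttttagaaatgtg
Zc3h12a: gaaatttaaaagaaaaaaaaagctattgcc
Cpsf2: tcctgcctctggtgtactgggattgtaggc

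To see how transcription changes along the 20 kb, sense reads were summed over all members in each bin and divided by the mean number of sense reads per kb in the last 5 kb of the same genes. A relative level of 1 is therefore the level of the gene itself just before its end. In AGTuC, the level rose past the end. It was 1.14 in the last kb of the gene, 1.83 in the first kb and 1.92 in the second kb after the end, and then declined to 1.43, 1.06 and 0.789 in the 3 bins that follow, to 0.260 at 9 to 10 kb and to 0.124 at 19 to 20 kb (means of 2 libraries). In bins of 250 bp, with the reads of all batches or libraries of an assay summed, the AGTuC level went from 1.05 just before the end to 1.29, 1.86, 2.07 and 2.104 in the 4 bins of the first kb. In both assays on intact nuclei, the level fell at the end itself. From the last 250 bp of the gene to the first 250 bp after it, the level of the summed reads went from 0.878 to 0.521 in scGRO–seq and from 0.952 to 0.530 in inAGTuC. Deep batches weigh more in these sums, and that of inAGTuC includes the Exp234 library. The first kb after the end stood at 0.571 ± 0.130 in scGRO–seq (SD, n = 10) and at 0.623 ± 0.179 in inAGTuC (SD, n = 4), or at 0.570 without the Exp234 library. Farther out the order of the assays turned. The mean level from 15 to 20 kb was 0.126 to 0.384 in the scGRO–seq batches, 0.328, 0.221, 0.723 and 0.167 in the inAGTuC libraries, and 0.134 and 0.144 in AGTuC.

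**Figure D1:**
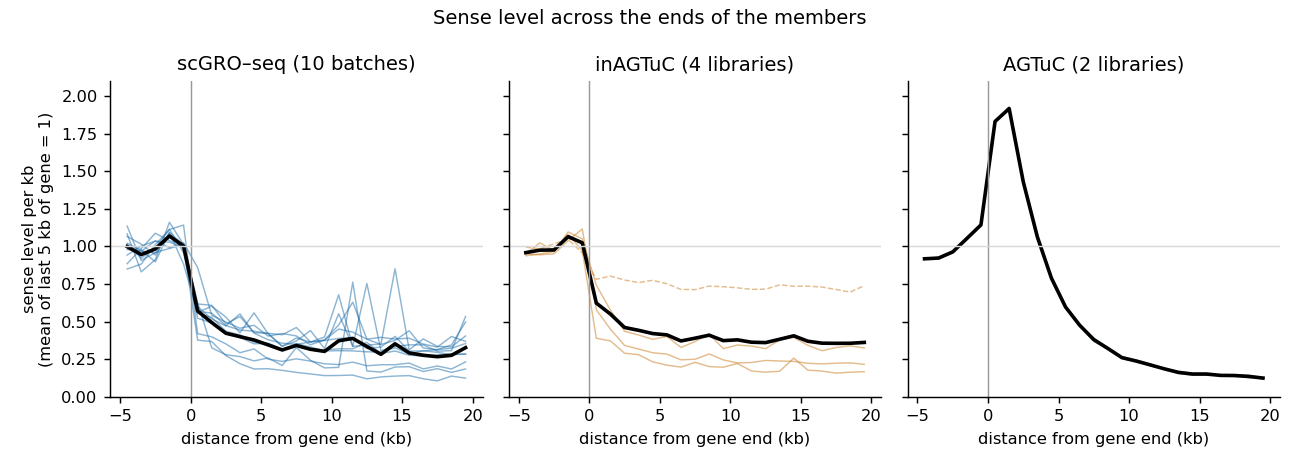
Sense level per kb (y axis) by distance from the gene end (x axis, kb), relative to the last 5 kb of the gene and summed over the 8709 members; thin lines are scGRO–seq batches or inAGTuC libraries, the dashed line is the Exp234 library, and the thick black line is the mean of the assay, which covers the 2 AGTuC libraries, whose profiles nearly coincide. AGTuC rises above 1.8 in the first 2 kb and falls to 0.124 in the last bin, whereas the other assays drop below 1 at the end of the gene and level off, and single batches of scGRO–seq show peaks from 10 to 15 kb.

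The profiles were reduced to 3 measures per batch or library. The readthrough length is the sum of the 20 relative levels, in kb, so that a gene level kept through the whole window would give 20 kb. The level of the first 5 kb is the mean of the first 5 bins, a measure added after the profiles had been seen. The decay distance is the distance from the gene end at which the level falls to the midpoint between its highest value in the first 5 bins and its mean from 15 to 20 kb. The level of the first 5 kb was 0.453 ± 0.095 in scGRO–seq (SD, n = 10, from 0.285 to 0.566), was 0.509, 0.396, 0.779 and 0.313 in inAGTuC, and was 1.403 and 1.41 in AGTuC. Each of the 14 units on intact nuclei lay below both AGTuC libraries. scGRO–seq was lower than AGTuC by 0.953 ± 0.030 (SE; exact permutation test, two-sided, p = 0.0152, adjusted p = 0.0455 over 3 comparisons), and this p is the smallest that 10 batches and 2 libraries can give. The 2 AGTuC libraries share a batch, and the call rests on counting them as 2 replicates. The SE and p of each comparison with AGTuC therefore measure no spread between AGTuC batches. inAGTuC was lower than AGTuC by 0.907 ± 0.102 (SE; exact permutation p = 0.0667, also the smallest possible, adjusted p = 0.100). scGRO–seq and inAGTuC differed by −0.046 ± 0.106 (SE; exact permutation p = 0.562), and by 0.0469 without the Exp234 library. Leaving out any 1 of the 12 batches or libraries moved the difference of scGRO–seq from AGTuC to between −0.966 and −0.935, with adjusted p from 0.0545 to 0.273. Each of these runs gave the smallest exact permutation p that its remaining batches and libraries allow, so that the loss of the call was set by their number.

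The readthrough length, summed over members, separated the assays less. It was 3.54 kb at the lowest, 7.46 kb at the median and 8.92 kb at the highest in the scGRO–seq batches (mean 7.05 ± 1.85 kb, SD, n = 10). It was 7.80, 5.56, 14.8 and 4.42 kb in the inAGTuC libraries, with a mean of 8.14 kb, or 5.93 kb without the Exp234 library. AGTuC gave 10.6 and 10.8 kb, above every scGRO–seq batch and above 3 of the 4 inAGTuC libraries. None of the 3 comparisons of assays passed after adjustment. scGRO–seq was below AGTuC by 3.66 ± 0.593 kb (SE; exact permutation p = 0.0455, adjusted p = 0.136), inAGTuC was below AGTuC by 2.57 ± 2.33 kb (SE; exact permutation p = 0.467) and scGRO–seq was below inAGTuC by 1.09 ± 2.40 kb (SE; exact permutation p = 0.540). Without the Exp234 library, scGRO–seq stood above inAGTuC by 1.12 kb. As a median over members with at least 20 reads in the last 5 kb, instead of a ratio of sums, the readthrough length was 0.828 kb in scGRO–seq over the 9 batches that gave a median, 1.30 kb in inAGTuC (1.07 kb without the Exp234 library) and 8.63 kb in AGTuC, and the difference of scGRO–seq from AGTuC was −7.80 kb (exact permutation test, adjusted p = 0.0545). The exact p behind this value was the smallest that 9 batches and 2 libraries can give. A member entered this median by its reads in the last 5 kb of the same batch or library, which are also the reference. Members with many reads there are thereby favoured, and the members differ with depth. All members together had 8525 to 137864 such reads in the scGRO–seq batches and 92231 and 188334 in AGTuC. The part of this choice in the difference was not tested. Among the libraries used here, Exp208 is the batch that held both scGRO–seq and inAGTuC, and within it the 2 scGRO–seq libraries gave 4.67 and 5.29 kb and the 2 inAGTuC libraries 7.80 and 5.56 kb. After the mean level from 15 to 20 kb had been subtracted from every bin and from the gene, an alternative added after seeing the data, the readthrough length was 1.85 kb in scGRO–seq, 1.45 kb in inAGTuC (1.53 kb without the Exp234 library) and 9.21 kb in AGTuC, and the difference of scGRO–seq from AGTuC was −7.36 kb (exact permutation p = 0.0152, adjusted p = 0.0455). The decay distance was 1.24 to 4.11 kb in the scGRO–seq batches (mean 2.70 kb), 2.65 kb in inAGTuC as a mean of 4 libraries (2.43 kb without the Exp234 library), and 3.62 and 3.64 kb in AGTuC.

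Antisense reads of the same windows served as the background. For this comparison the 3735 members with no annotated gene on either strand in the 20 kb were used, and they are called isolated here. In the last 5 kb of these genes, sense reads outnumbered antisense reads 16.4 and 15.3 times in AGTuC, 1.92 to 5.55 times in scGRO–seq, and 2.43, 3.38, 0.892 and 4.18 times in inAGTuC. In the first 5 kb after the end the ratio was higher in AGTuC, at 25.7 and 23.9, and stood at 0.914 to 3.33 in scGRO–seq and at 1.39, 1.97, 0.973 and 1.72 in inAGTuC. Over the whole 20 kb, the ratio was 7.69 and 7.29 in AGTuC, 1.196, 1.53, 0.965 and 1.41 in inAGTuC and 1.04 to 2.08 in scGRO–seq. The log2 ratio of scGRO–seq was 0.43 ± 0.35 (SD, n = 10) and above 0 in 10 of 10 batches (exact sign-flip test over batches, two-sided, p = 0.00195, the smallest possible). From 15 to 20 kb, little strand difference was left in any assay. The ratio there was 1.02 in both AGTuC libraries, with sense above antisense up to about 18 kb and mostly below it from there to 20 kb, and was 0.926 to 1.24 in scGRO–seq and 0.962 to 1.24 in inAGTuC. With antisense reads subtracted from bins and gene in the isolated members, the readthrough length was 2.38 ± 1.28 kb in scGRO–seq (SD, n = 10), 1.91 ± 0.113 kb in inAGTuC without the Exp234 library (SD, n = 3) and 10.1 ± 0.111 kb in AGTuC (SD, n = 2). The value of the Exp234 library cannot be read as a length, since its antisense reads outnumbered its sense reads in the gene and after it.

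**Figure D2:**
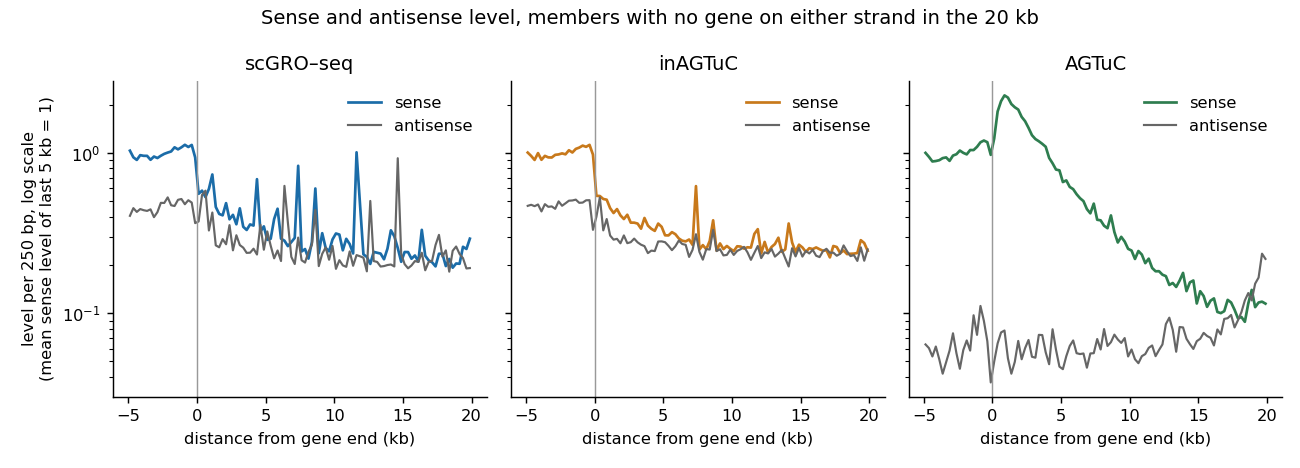
Sense (coloured) and antisense (grey) level per 250 bp by distance from the gene end (x axis, kb) in the 3735 isolated members, with the reads of all batches or libraries of each assay summed, on a log scale relative to the mean sense level of the last 5 kb of the gene. In AGTuC the strands are far apart at the end, approach each other with distance and meet near 18 kb, with antisense above sense close to 20 kb; in scGRO–seq and inAGTuC they are closer together after the end than before it, and scGRO–seq shows single spikes on both strands.

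The last 5 kb of the gene, to which all levels are relative, differed in make-up between the assays. Sense reads per base were denser in exons than in introns of this stretch by 1.74 ± 0.318 times in scGRO–seq (SD, n = 10), 1.60 ± 0.225 times in inAGTuC (SD, n = 4; 1.71 times without the Exp234 library) and 1.48 ± 0.033 times in AGTuC (SD, n = 2). Genes of small nucleolar, transfer and other small RNAs overlap the last 5 kb of 86 members and cover 0.0195% of its bases. They took 5.13% of the sense reads of the last 5 kb in scGRO–seq (2.21 to 11.2% in the batches), 3.81% in inAGTuC (4.66% without the Exp234 library) and 0.150% in AGTuC. With introns as the reference, the readthrough length was 9.41 kb in scGRO–seq and 12.8 kb in AGTuC. The part of mature or processed RNA in the difference between assays was not tested.

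Readthrough length was next set against gene length. In scGRO–seq, the mean over 10 batches was 6.18 kb for the 3177 members of 5 to 20 kb, 7.43 kb for the 2548 members of 20 to 50 kb, 7.33 kb for the 1384 members of 50 to 100 kb and 9.24 kb for the 1600 members over 100 kb. The longest class exceeded the shortest by 3.06 ± 2.12 kb (SD, n = 10), in 10 of 10 batches (exact sign-flip test, p = 0.00195, adjusted p = 0.00391 over 4 class comparisons). The corresponding difference was +1.199 kb in inAGTuC, with 3 of 4 libraries above 0 (+1.28 kb without the Exp234 library), and +2.78 and +3.03 kb in the AGTuC libraries. In AGTuC, the shortest class stood lowest at 9.001 kb, and the others gave 12.3, 12.8 and 11.9 kb in order of length. The decay distance of AGTuC was 2.98, 4.05, 4.88 and 4.39 kb in the same order, so that the class of 50 to 100 kb had the longest decay and not the class over 100 kb. The shortest class includes the 480 members with a gene body, as defined below, under 1 kb. Their last 5 kb, which is the reference, reaches to near their start. The paper reports that inAGTuC, unlike AGTuC, missed the paused peaks at gene starts. The part of reads near the start in the readthrough length of the shortest class was not tested. With the far level subtracted, the difference between the longest and the shortest class in scGRO–seq was 2.24 kb and no longer passed (exact sign-flip test, adjusted p = 0.0879). With antisense reads subtracted over all members, the direction turned, with a difference of −2.66 kb (exact sign-flip test, adjusted p = 0.372). Over all members, antisense reads can outnumber sense reads after the end, as in Exp156 at 1 to 2 kb (levels of 1.14 and 0.367). This difference therefore cannot be read as a length.

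The transcription level of the gene went with a much larger difference in the assays on intact nuclei. Members were divided into tertiles of 2743 genes by the sense reads per kb of inAGTuC in the gene body, from 500 bases after the start to 5 kb before the end, and the 480 members in which this body was shorter than 1 kb were left out. The classes therefore used neither scGRO–seq nor the reference, although they did use inAGTuC reads. In scGRO–seq, the readthrough length was 20.04 kb in the low, 11.1 kb in the middle and 4.68 kb in the high tertile, and the difference of high from low was −15.4 ± 3.37 kb (SD, n = 10) and below 0 in 10 of 10 batches (exact sign-flip test, p = 0.00195, adjusted p = 0.00391). The low tertile lay at the length that an even level through gene and window gives. With antisense reads subtracted over all members, the difference was −21.7 kb and no longer passed (exact sign-flip test, adjusted p = 0.797). This value cannot be read as a length either, since antisense reads can outnumber sense reads after the end. inAGTuC gave 19.7, 11.6 and 5.86 kb, or 18.7, 9.24 and 4.09 kb without the Exp234 library. In AGTuC the range was narrower, with 15.5, 11.5 and 10.7 kb. The level of the first 5 kb ran in opposite directions. From the low to the high tertile it went from 0.995 through 0.685 to 0.343 in scGRO–seq and from 0.936 through 0.683 to 0.401 in inAGTuC (0.908, 0.592 and 0.322 without the Exp234 library), but from 1.06 through 1.31 to 1.46 in AGTuC. In the low tertile it thus lay near 1 in each assay. The mean level from 15 to 20 kb of this tertile was 0.917 in scGRO–seq, 1.00 in inAGTuC and 0.736 in AGTuC. Over all members, the level of the first 5 kb lay below 1 in both assays on intact nuclei and above 1 in AGTuC. Whether the tertiles differ between assays beyond this was not tested.

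The hexamer classes differed by less. Members with AATAAA had a readthrough length of 6.70 kb in scGRO–seq, 7.69 kb in inAGTuC and 10.4 kb in AGTuC. Those with ATTAAA gave 7.45, 7.92 and 11.05 kb, and those with neither gave 8.15, 10.1 and 11.4 kb, in the same order of assays. Without the Exp234 library, inAGTuC gave 5.42, 5.796 and 8.02 kb for the 3 classes. In scGRO–seq, AATAAA members were below members with neither hexamer by 1.44 ± 0.848 kb (SD, n = 10), in 9 of 10 batches (exact sign-flip test, p = 0.00391, adjusted p = 0.00521). The difference was −2.36 kb in inAGTuC, or −2.59 kb without the Exp234 library, and −0.966 and −0.951 kb in the AGTuC libraries. The AGTuC decay distance was 3.59 kb with AATAAA, 3.64 kb with ATTAAA and 3.59 kb with neither. Within the isolated members the scGRO–seq difference was +0.0804 kb (exact sign-flip test, adjusted p = 0.875), and against the 5 kb before the last 5 kb of the gene it was −0.114 kb (adjusted p = 0.797). With antisense reads subtracted over all members, it turned to +14.7 kb (exact sign-flip test, adjusted p = 0.00391). That value cannot be read as a length, since antisense reads can outnumber sense reads after the end.

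Neighbours on the opposite strand and the base composition of the window were described in the same way. The 1991 members with the start of an opposite-strand gene in the 20 kb had a readthrough length of 6.59 kb in scGRO–seq, 8.61 kb in inAGTuC and 11.5 kb in AGTuC, against 7.02, 6.52 and 10.97 kb in the isolated members. Without the Exp234 library, inAGTuC gave 6.40 kb and 5.22 kb. The 2983 members with an opposite-strand gene but not its start in the 20 kb gave 7.51 kb in scGRO–seq, 9.18 kb in inAGTuC (6.22 kb without the Exp234 library) and 9.81 kb in AGTuC, as values without a test. The scGRO–seq difference of −0.426 kb between members with an opposite start and isolated members did not pass (exact sign-flip test, p = 0.510, 5 of 10 batches above 0). It was −20.0 kb and passed with antisense reads subtracted, which here also subtracts the opposite-strand genes (adjusted p = 0.00391, exact sign-flip test), and turned to +0.922 kb against the 5 kb before the last 5 kb (adjusted p = 0.214, exact sign-flip test). By tertiles of the GC content of the 20 kb, whose median was 44.3%, the AGTuC decay distance was 4.47 kb at low, 3.83 kb at middle and 3.36 kb at high GC, that of scGRO–seq was 3.597, 2.65 and 2.54 kb, and that of inAGTuC was 2.58, 3.23 and 1.89 kb. The readthrough length in the same order of GC was 11.5, 10.58 and 10.5 kb in AGTuC, 6.48, 7.38 and 7.20 kb in scGRO–seq and 7.29, 7.55 and 9.06 kb in inAGTuC (5.14, 5.70 and 6.62 kb without the Exp234 library). By tertiles of the repeat share of the 20 kb, whose median was 28.6%, the readthrough length fell from 8.25 through 6.66 to 6.26 kb in scGRO–seq and from 11.7 through 10.8 to 9.57 kb in AGTuC, as values without a test. In inAGTuC it fell from 10.3 through 7.63 to 6.25 kb, or from 7.35 through 5.61 to 4.76 kb without the Exp234 library. The part of read mapping in repeats was not tested.

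**Figure D3:**
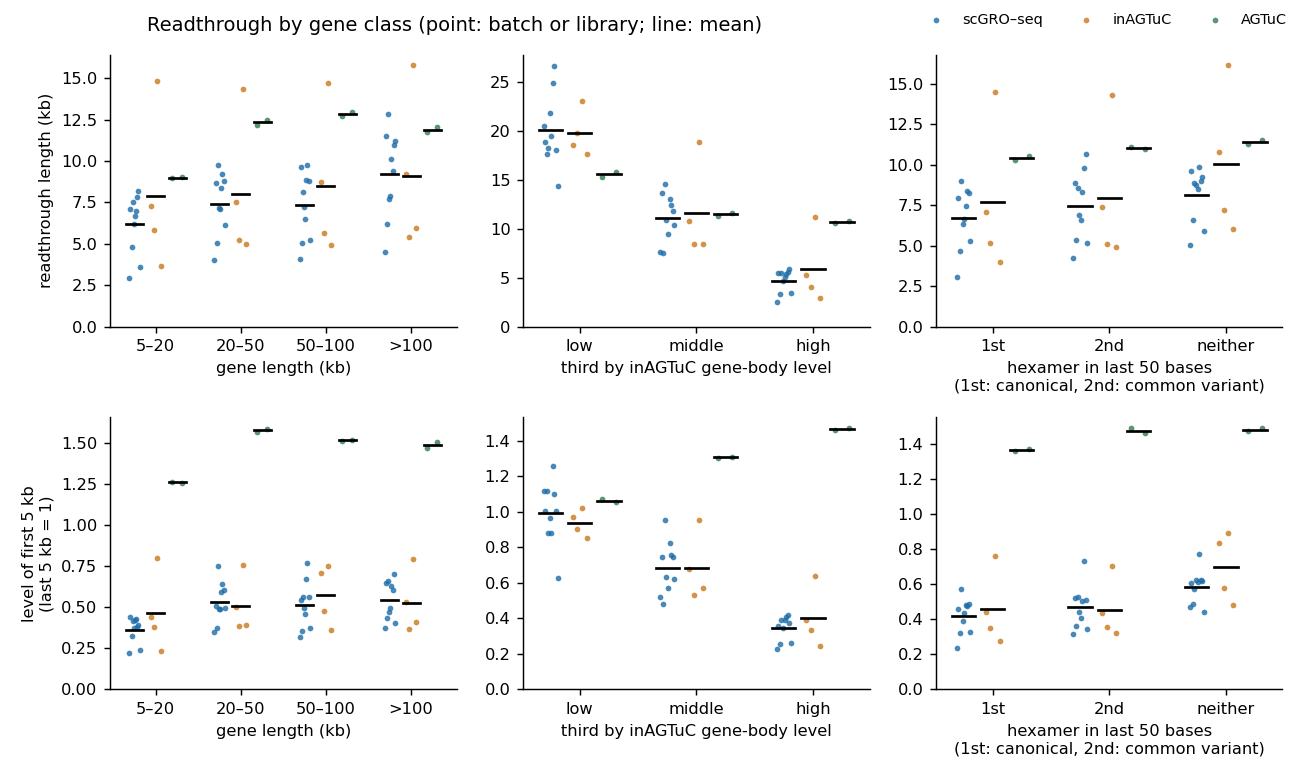
Readthrough length in kb (upper row) and level of the first 5 kb (lower row) of members by class of gene length, tertile of transcription level and hexamer (1st is AATAAA, 2nd is ATTAAA), with a point for each batch or library and a line at the mean of the assay; every y axis starts at 0 and its upper limit differs between panels. From the low to the high tertile, the level of the first 5 kb goes down in scGRO–seq, from 0.995 to 0.343, and up in AGTuC, from 1.06 to 1.46.

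For single members, the reads of the first 5 kb after the end were compared with those of the last 5 kb of the gene by limma, with batch or library as a block, over all protein-coding genes over 5 kb that had at least 50 reads in the 2 regions together. In scGRO–seq, 2817 of the 8709 members had enough reads, and 1779 of them (63.2%) were lower and 75 (2.66%) higher after the end at an adjusted p under 0.05. Among all 5727 genes tested, members and others, 59.3% were lower and 5.24% higher. In inAGTuC, 363 of 571 members (63.6%) were lower and 21 (3.68%) higher, against 55.8% and 7.85% of all 1338 genes. In AGTuC, the balance was the other way, with 384 of 3444 members (11.1%) lower and 1779 (51.7%) higher, against 10.4% and 57.1% of all 7367 genes. The AGTuC fit rests on 2 libraries of a single batch. Its p-values, here and for the genes named below, therefore do not measure a spread between batches, as those of scGRO–seq do. The differences between members and all genes, which include the members, were not tested. The median log2 ratio of members was −1.19 in scGRO–seq, −1.53 in inAGTuC and 0.60 in AGTuC, beside −1.13, −1.38 and 0.72 over all genes tested. With molecules found in more than 1 library also counted, and cells chosen again with them, 2738 members were lower and 157 higher in scGRO–seq, and an exact sign-flip test over batches in place of limma gave 23 higher. Without Exp236, the deepest batch, 717 members were lower and 40 higher in scGRO–seq. Leaving out any of the 4 inAGTuC libraries left 72 to 237 members lower and 12 to 17 higher. The number of members that reach 50 reads changes when reads are added or a batch or library is left out. The counts under these settings are therefore not shares and do not show a change in the part of members called. Without the Exp234 library, 237 of 310 members (76.5%) were lower and 15 (4.84%) higher, against 67.3% and 9.86% of all 740 genes, and the median log2 ratio of members was −1.99.

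The calls of scGRO–seq and AGTuC were set side by side for the 2407 members tested in both. Of these, 938 were lower after the end in scGRO–seq and higher in AGTuC, 160 were lower in both, 11 were higher in both and 4 were higher in scGRO–seq and lower in AGTuC. The 938 are 57.5% of the 1632 members lower in scGRO–seq, and 57.4% of all 2407 were higher in AGTuC, so that members lower in scGRO–seq were higher in AGTuC about as often as members in general. Across members, the log2 ratios of scGRO–seq and inAGTuC had a Pearson correlation of 0.875 and a Spearman correlation of 0.831 (564 members). The corresponding values were 0.192 and 0.142 for scGRO–seq against AGTuC (2407 members) and 0.270 and 0.204 for inAGTuC against AGTuC (553 members). The 2 AGTuC libraries had 0.822 and 0.755 (3444 members). Members are not independent replicates, and the points of scGRO–seq and inAGTuC share the conditions for intact nuclei and the Exp208 batch, so these correlations are a description.

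**Figure D4:**
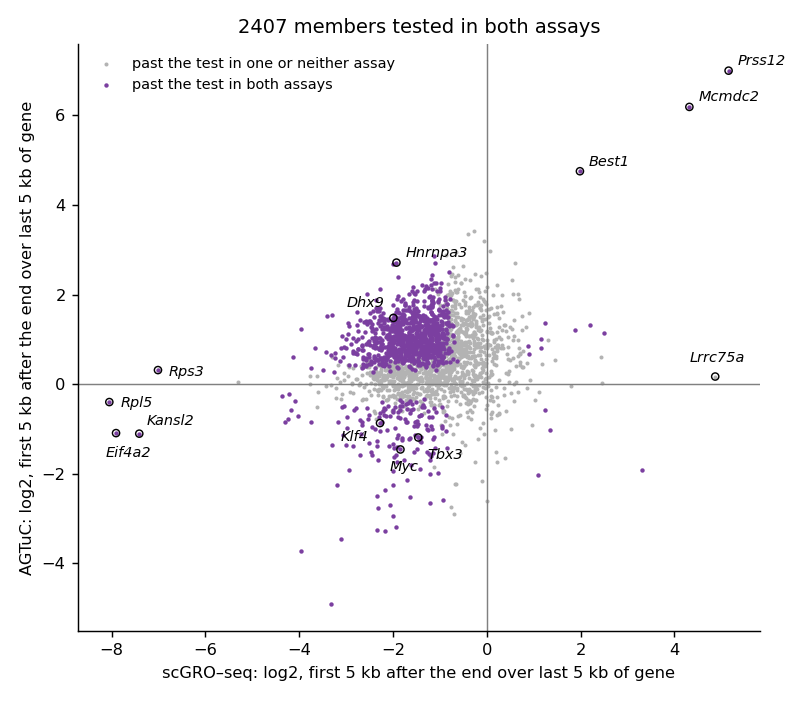
Fitted log2 ratio of the first 5 kb after the end over the last 5 kb of the gene in scGRO–seq (x axis) and in AGTuC (y axis), with a point for each of the 2407 members tested in both (purple where both passed, grey otherwise, circles for named members); the positions of Prss12 and Mcmdc2 on the AGTuC axis are fitted values and no bounds, since no AGTuC read was found before their ends. The 938 members lower in scGRO–seq and higher in AGTuC are the purple points in the upper left, and Rpl5, Eif4a2, Kansl2 and Rps3 lie at the far left.

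Of the 8 members with most scGRO–seq reads in the last 5 kb, the 5 with the highest counts held small RNA genes in this stretch. Rpl5, a protein of the large ribosomal subunit whose introns hold Snord21, had 112, 251.5 and 4791 reads in the last 5 kb (lowest, median and highest batch) and 0, 1 and 15 in the first 5 kb after the end. inAGTuC gave 136, 95, 60 and 1404 reads before and 1, 2, 6 and 1 after the end. AGTuC gave 184 and 378 before and 133 and 293 after. Every scGRO–seq batch and inAGTuC library thus had far fewer reads after the end than before it, while in AGTuC the counts on both sides were of similar size. The log2 ratio was −8.05 ± 0.34 in scGRO–seq (SE, limma adjusted p = 9.8e-17), −6.63 ± 0.94 in inAGTuC (adjusted p = 7.6e-05) and −0.40 ± 0.10 in AGTuC (adjusted p = 0.00017). Small RNA genes held 71.7% of the scGRO–seq reads in the last 5 kb of Rpl5, 74.8% of the inAGTuC reads and 14.1% of the AGTuC reads. Their part in the ratio was not tested.

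Eif4a2, an RNA helicase of translation initiation that hosts Snora81, had 108, 339 and 2858 reads before the end and 0, 1 and 16 after it in the scGRO–seq batches. AGTuC gave 332 and 772 before and 151 and 366 after. Its log2 ratio was −7.91 in scGRO–seq (limma adjusted p = 9.8e-17) and −1.09 in AGTuC (adjusted p = 7.1e-37), and small RNA genes held 48.02% and 11.3% of the reads of its last 5 kb. Kansl2, a subunit of the NSL histone acetyltransferase complex that hosts Snora34 and Mir1291, was close to it, with log2 ratios of −7.41 and −1.11 (adjusted p = 3.1e-15 and 9.8e-10) and small RNA shares of 20.7% and 2.22%. Rps3, a protein of the small ribosomal subunit that hosts Snord15a and Snord15b, differed in direction. It had 113, 241 and 3675 reads before and 0, 3 and 14 after the end in scGRO–seq, with a log2 ratio of −7.01 (adjusted p = 1.4e-13), but 266 and 512 before and 332 and 635 after in AGTuC, with a log2 ratio of +0.31 (adjusted p = 9.6e-05). Slc25a3, the mitochondrial phosphate carrier, had log2 ratios of −5.30 in scGRO–seq (adjusted p = 1.2e-11) and 0.05 in AGTuC (adjusted p = 0.777).

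Members without a small RNA gene at their end were also far lower after the end in scGRO–seq. Snrpb, a core protein of the spliceosomal snRNPs, had 4, 24.5 and 393 reads before the end and 0, 1.5 and 19 after it in the scGRO–seq batches, against 39 and 101 before and 72 and 140 after in AGTuC. Its log2 ratio was −4.13 ± 0.34 in scGRO–seq (SE, limma adjusted p = 2.0e-10) and 0.60 ± 0.16 in AGTuC (adjusted p = 0.00046). Slc38a2, a transporter of neutral amino acids, had 3, 16.5 and 156 reads before and 0, 0.5 and 4 after in scGRO–seq, and 102 and 249 before and 87 and 203 after in AGTuC. Its log2 ratios were −4.38 (adjusted p = 2.7e-09) and −0.27 (adjusted p = 0.038). For 2 of the most-read members the count rested on a single batch. Tln2, which links integrins to actin, had 668 of its 693 scGRO–seq reads before the end in Exp260b, and Fgfr3, a receptor of fibroblast growth factors, had 504 of 668 in Exp263.

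At the other extreme, the 6 members with the largest ratio in scGRO–seq had few or no reads before the end and most of their reads after it. Prss12, a secreted serine protease, had 0, 0 and 4 reads before the end and 2, 22.5 and 350 after it in the scGRO–seq batches. inAGTuC gave 0, 1, 5 and 0 before and 46, 17, 11 and 23 after, and AGTuC gave 0 and 0 before and 42 and 95 after. The first 5 kb after the end was at least 45.7-fold higher than the last 5 kb in AGTuC, against a floor of 3 reads over both libraries, and the log2 ratio in scGRO–seq was 5.15 ± 0.41 (SE, limma adjusted p = 9.6e-11). Its 20 kb hold the starts of 3 opposite-strand genes, and 78.5% of its scGRO–seq reads there fell in a single 50 bp bin, against 13.2% in AGTuC. Mcmdc2, which acts in meiotic recombination, was similar, with 449 scGRO–seq reads after and 30 before the end and with 73 after and none before in AGTuC, at least 24.3-fold more. Lrrc75a had 1083 reads after and 28 before in scGRO–seq (log2 ratio 4.87, adjusted p = 4.4e-12) but 133 and 118 in AGTuC (log2 ratio 0.17, adjusted p = 0.419).

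For 3 others of the 6, a single 50 bp bin held at least 76.5% of the scGRO–seq reads. Aamdc had 7, 36 and 1015 scGRO–seq reads after the end against 13 in inAGTuC and 21 in AGTuC, with 82.8% of the scGRO–seq reads of its 20 kb in 1 bin. Gpr179 had 419 reads after the end in scGRO–seq, of which 297 came from 1 batch, and 0 and 1 in the AGTuC libraries. Cd36, a receptor that takes up fatty acids, had 276 reads in scGRO–seq and 3 and 18 in AGTuC. Of the 75 members higher in scGRO–seq, 24 had enough reads in AGTuC, and 11 of these (45.8%) were higher there as well, against 57.4% of the 2407 members tested in both. Of the 12 that had enough reads in inAGTuC, 11 were higher there, against 7.85% of all genes tested in that assay.

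Pile-ups far from the gene were also seen in members that the naming rule did not reach, and 2 are given here, chosen after their values had been seen. The window of Lhx5, a homeobox transcription factor, held 6652 scGRO–seq reads, of which 4512 came from Exp260b and 2040 from Exp236, nearly all at 12 to 13 kb. The AGTuC libraries had 2 and 3 reads in this window. The window of Khnyn, a cofactor of the antiviral protein ZAP, held 3288, of which 1867 came from Exp260b and 1214 from Exp263, at 10 to 11 kb, where AGTuC had none. The inAGTuC library of Exp261 held 470 reads in the same bin, and the other 3 inAGTuC libraries none. The 10 members with most reads took 6.72% of all scGRO–seq reads in the windows and 2.50% of those of AGTuC. Without the 10 members with most reads in any assay, the readthrough length of scGRO–seq was below that of AGTuC by 4.06 kb (exact permutation test, adjusted p = 0.0455).

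The distance at which single members were still read was given by the median distance of their sense reads from the gene end, in members with at least 100 reads in the 20 kb. An even spread would give 10 kb. In AGTuC, the median over 2013 members was 3.25 kb, and the middle part of the members lay between 2.00 and 5.42 kb (25th to 75th percentile). In scGRO–seq it was 8.84 kb over 770 members (6.31 to 10.8 kb), and in inAGTuC it was 9.60 kb over 71 members (8.64 kb over 35 members without the Exp234 library). The members differ between assays, since each entered by the reads of that assay in its window. In isolated members the median was 7.23 kb in scGRO–seq, 10.3 kb in inAGTuC and 3.20 kb in AGTuC. With an opposite-strand start in the window it was 8.89, 7.96 and 3.43 kb. The distances of scGRO–seq and inAGTuC had a Pearson correlation of 0.807 across 65 members, and those of scGRO–seq and AGTuC had one of 0.087 across 420 members, as a description. Within AGTuC, the distance had a Pearson correlation of 0.093 and a Spearman correlation of 0.204 with log10 length over 2013 members. Its median by length class was 2.60, 3.56, 4.09 and 3.39 kb from the shortest to the longest class.

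The members with the shortest distance in AGTuC, named after their values had been seen, had their median within the first kb. Ptp4a1, a protein tyrosine phosphatase, had a median distance of 0.348 kb over its 117 AGTuC reads, and Ccdc97, Zc3h12a, Hnrnpa3 and Ccdc86 had 0.374, 0.445, 0.477 and 0.494 kb. Of these 5, 4 carried ATTAAA, which 18.8% of all members carried, with or without AATAAA, and Zc3h12a, an endonuclease of inflammatory mRNAs, carried neither, as printed above. Over members with at least 100 AGTuC reads, the median distance was 3.32 kb with ATTAAA and no AATAAA (319 members) and 3.15 kb with AATAAA (1275 members), so that members with ATTAAA alone were not closer to the end in general. Zc3h12a had 130 and 285 AGTuC reads in the last 5 kb and 267 and 516 in the first 5 kb after the end, and no more than 1 further read up to 20 kb. Hnrnpa3, an RNA-binding protein of the hnRNP family, had 30 and 55 before and 167 and 397 after, a log2 ratio of 2.71 ± 0.17 (SE, limma adjusted p = 4.1e-55), with 448 of its AGTuC reads in the first kb. In scGRO–seq, Hnrnpa3 had 1, 3 and 39 reads before the end and 0, 0.5 and 20 after, a log2 ratio of −1.93 ± 0.42 (SE, adjusted p = 0.00033), and a median distance of 9.57 kb.

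Some members had a long distance in AGTuC, up to 19.8 kb, with reads close to the far side of the window. Those given here were named after their values had been seen. Kdelr3, a receptor that returns proteins to the endoplasmic reticulum, had a median distance of 19.2 kb, and Zfp668 had 19.4 kb. Both were lower right after the end in AGTuC. Kdelr3 had 31 and 65 reads before and 13 and 37 after (log2 ratio −0.92, limma adjusted p = 0.00062), and Zfp668 had 42 and 70 before and 4 and 16 after (log2 ratio −2.36, adjusted p = 8.2e-09). The lowest AGTuC ratios included Taf8, a subunit of TFIID, with 70 and 103 reads before and 2 and 3 after the end, and Ccdc127, with 58 and 139 before and 5 and 9 after (log2 ratios −4.85 and −3.74, adjusted p = 4.8e-11 and 1.5e-15). In scGRO–seq the distance was longest in Hlcs, Fbp2 and Smarce1, at 19.97, 19.93 and 19.75 kb, and there 81.8 to 95.2% of the reads lay in a single 50 bp bin. Smarce1, a subunit of the BAF chromatin remodelling complex, had a distance of 0.777 kb in AGTuC.

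The genes of the machinery that ends transcription were followed as a group of members. Of 25 listed cleavage and polyadenylation factors, 10 were members, and all 10 had enough reads in scGRO–seq and in AGTuC. After the end, 8 of 10 were lower and none higher in scGRO–seq, with a median log2 ratio of −1.31, and in AGTuC none was lower and 7 were higher, with a median of 1.13. In inAGTuC, 2 of 4 were lower. Of all genes tested, 59.3% were lower in scGRO–seq, 55.8% lower in inAGTuC and 10.4% lower and 57.1% higher in AGTuC. Cpsf6, a subunit of cleavage factor I, had 2, 6.5 and 70 reads before and 0, 1.5 and 23 after the end in scGRO–seq, and 21 and 52 before and 77 and 154 after in AGTuC. Its log2 ratios were −1.78 (limma adjusted p = 0.00042) and 1.65 (adjusted p = 3.2e-16). Papola, the poly(A) polymerase, had 1, 4.5 and 53 before and 0, 1.5 and 16 after in scGRO–seq and 24 and 50 before and 57 and 129 after in AGTuC, and its AGTuC reads lay far out, at a median distance of 8.54 kb. Cpsf2, a subunit of the cleavage and polyadenylation specificity factor whose own end carries neither hexamer, had log2 ratios of −1.02 in scGRO–seq (adjusted p = 0.016) and 1.26 in AGTuC (adjusted p = 7.9e-05). Cpsf4, the subunit of the same complex that binds the hexamer, had −1.19 (adjusted p = 0.0018) and 0.35 (adjusted p = 0.081). Papolg and Fip1l1 did not pass in either assay.

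Of 34 listed termination and Integrator factors, 16 were members. In scGRO–seq, 9 of 12 tested were lower and none higher (median log2 ratio −1.32), in inAGTuC 3 of 4 were lower, and in AGTuC 2 of 15 were lower and 10 higher (median 0.69). The shares of all genes tested were 59.3% lower in scGRO–seq, 55.8% lower in inAGTuC and 10.4% lower and 57.1% higher in AGTuC, and the list lay near them. Dhx9, a helicase that resolves RNA–DNA hybrids, had 7, 12.5 and 156 reads before the end and 0, 4 and 38 after it in the scGRO–seq batches. inAGTuC gave 10, 19, 14 and 59 before and 6, 5, 3 and 17 after, and AGTuC gave 143 and 216 before and 323 and 682 after. The order was thus opposite in AGTuC, with a log2 ratio of 1.48 ± 0.10 (SE, limma adjusted p = 3.7e-51) against −1.99 ± 0.34 in scGRO–seq (adjusted p = 2.5e-05) and −1.58 ± 0.47 in inAGTuC (adjusted p = 0.0089). Scaf4 and Scaf8, which bind the tail of the polymerase and keep it from early polyadenylation, had other values. Scaf4 was lower in both assays, at −0.88 (adjusted p = 0.045) and −0.68 (adjusted p = 0.015). Scaf8 had 1, 3 and 39 reads before and 1, 3 and 27 after the end in scGRO–seq and 15 and 33 before and 14 and 32 after in AGTuC. Its log2 ratios were −0.09 (adjusted p = 0.813) and −0.06 (adjusted p = 0.871), and its reads reached through the whole window, with median distances of 10.4 kb and 10.5 kb.

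Of 36 listed pluripotency genes, 20 were members. In scGRO–seq, 16 of 19 tested were lower after the end and none higher, with a median log2 ratio of −2.22, and in inAGTuC 10 of 11 were lower, with a median of −2.91. In AGTuC, 4 of 20 were lower and 13 higher, with a median of 0.55. Of all genes tested, 59.3% were lower in scGRO–seq (median log2 ratio −1.13), 55.8% in inAGTuC (median −1.38) and 10.4% lower and 57.1% higher in AGTuC (median 0.72). Zfp42, a zinc finger factor of naive ES cells, had 5, 9 and 124 reads before and 1, 5 and 63 after the end in scGRO–seq, and 304 before and 669 after in AGTuC over both libraries. Its log2 ratios were −0.97 ± 0.27 (SE, limma adjusted p = 0.0031) and 1.14 ± 0.11 (adjusted p = 9.9e-25). Nanog, a core pluripotency factor, had 1, 5 and 56 before and 0, 1 and 4 after in scGRO–seq and 78 and 165 before and 125 and 295 after in AGTuC (log2 ratios −2.74 and 0.78, adjusted p = 4.1e-05 and 1.1e-09). Trim28, a corepressor of retrotransposons, and Tdgf1, a Nodal co-receptor, had −2.89 and −3.49 in scGRO–seq and 0.90 and 0.31 in AGTuC. The 4 members lower in AGTuC, named after their values had been seen, were transcription factors, as is Nanog, which was higher there. Klf4 had 175 and 340 reads before and 72 and 212 after the end there, and Myc had 55 and 160 before and 31 and 46 after. Their log2 ratios in AGTuC were −0.87 (adjusted p = 2.9e-13) and −1.46 (adjusted p = 2.3e-13), and those of Tbx3 and Mycn were −1.19 (adjusted p = 1.2e-23) and −0.58 (adjusted p = 1.5e-05). In scGRO–seq, these 4 were lower as well, at −2.28, −1.84, −1.46 and −2.83. Klf4, Myc and Mycn are shorter than 6 kb, so that their last 5 kb reaches to near their start.

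**Figure D5:**
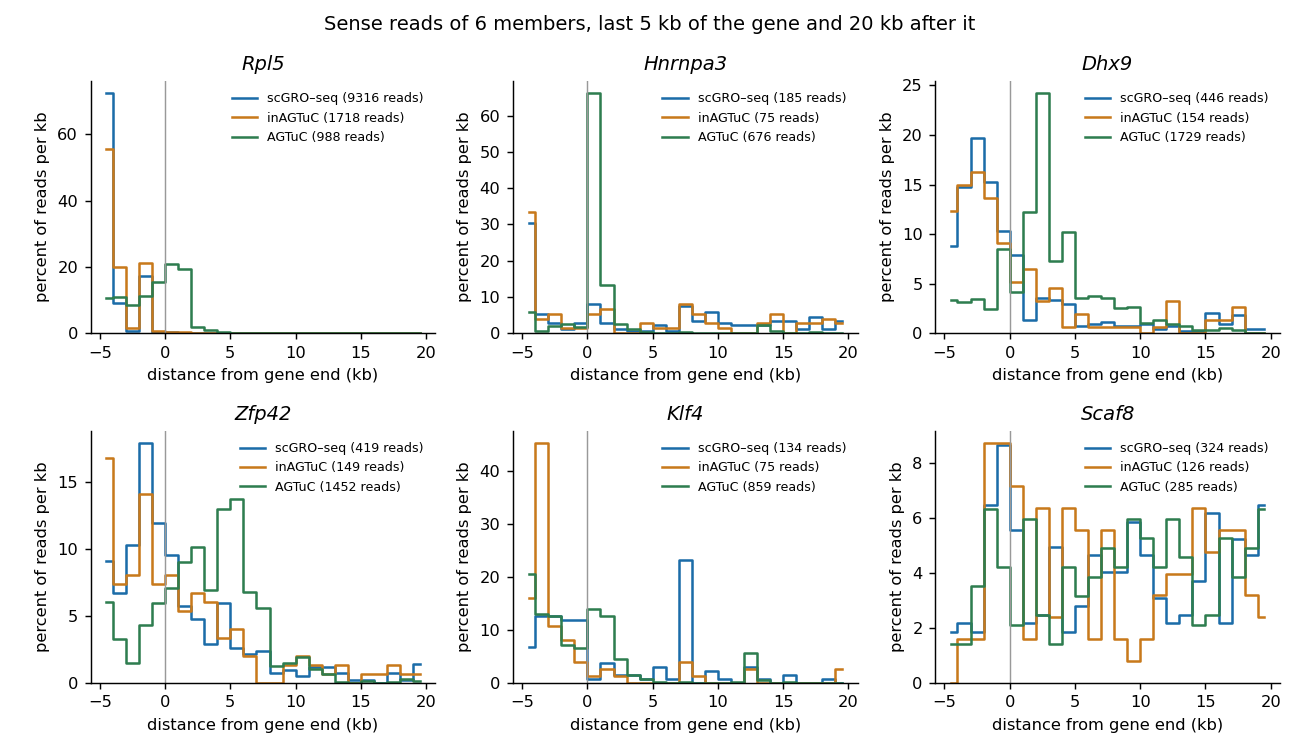
Sense reads per 1 kb bin, as a percentage of the reads of the member in the last 5 kb and the 20 kb after the end, for Rpl5, Hnrnpa3, Dhx9, Zfp42, Klf4 and Scaf8 in each assay, with reads of batches or libraries summed; the x axis is the distance from the gene end in kb. The share after the end in scGRO–seq, inAGTuC and AGTuC is 0.386, 1.34 and 43.1% for Rpl5, 31.2, 33.8 and 79.2% for Dhx9, and 79.0, 79.4 and 83.2% for Scaf8.

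The remaining lists held few members with enough reads. Of 8 members among 30 ubiquitous maintenance genes, 8 were lower after the end in scGRO–seq (median log2 ratio −2.13), 6 of 6 in inAGTuC and 3 in AGTuC, where 4 were higher. The shares of all genes tested were 59.3% lower in scGRO–seq, 55.8% lower in inAGTuC and 10.4% lower and 57.1% higher in AGTuC. Of 5 members among 30 stress and immediate early genes, 3 of 3 tested were lower in scGRO–seq, and 1 of 4 was lower and 2 were higher in AGTuC. Of 27 members among 30 neuronal adhesion and synapse genes, which are hardly transcribed in ES cells, 2 had enough reads in scGRO–seq, with 1 lower and 1 higher, and 2 in AGTuC, both lower.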

How the data were processed

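Per the labels and the study's methods, the authors removed adaptors and ribosomal reads, split reads by cell barcode, mapped them to mm10 with Bowtie2 and removed duplicates with UMI-tools; cutadapt is also named in the submitters' processing notes. Each library has a list with 1 entry per remaining read. The only deposited numeric column besides positions is a score, the mapping quality, which served here only as a filter in 1 alternative. The position of the polymerase was taken as the 3′ end of the RNA, on the strand opposite to the entry. Of 82 lists, 76 are of scGRO–seq, and 53 of these lie in the 10 batches used here. The other 23 were not used, and 18 of the 53 had too few kept cells to enter the values given, other than some alternatives, which leaves 35. Exp261_c16 appears in both assays on intact nuclei, and since 99.7% of the molecules of its scGRO–seq list are in its inAGTuC list, it entered as inAGTuC alone. Other molecules present in several libraries were dropped. Single cells needed 1000 UMIs and 750 genes, and a library needed 24 such cells. No doublet caller was run, since reads were summed per batch. Batches were the replicates of scGRO–seq, and libraries those of inAGTuC and AGTuC. The p-values measure the spread between these and not between animals, and for AGTuC not between batches.

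The levels were compared between assays with exact permutation tests, and classes of members were compared by exact sign-flip tests with batches as the replicates, all two-sided, with Benjamini-Hochberg adjustment over 3 and 4 comparisons. Single genes were fitted with voom of limma 3.58.1 in R 4.3.3, with a minimum of 50 reads, counts scaled to the library total and adjustment over all genes tested. The fit was tested on simulated data. Other steps used Python 3.11.15, numpy 2.4.6, pandas 2.3.3, scipy 1.17.1 and matplotlib 3.10.9. Gene ends, small RNA genes and sequences are those of RefSeq on GRCm38.

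The members, gene lists and tests were chosen with earlier results of these data known. Named members were the 8 with most scGRO–seq reads in the last 5 kb, the 6 with the largest and the 6 with the smallest log2 ratio among those past the test with at least 100 reads, the 5 with the longest and the 5 with the shortest median distance among those with at least 100 reads in the 20 kb, and members of 3 gene lists. Extremes of AGTuC and pile-ups were added after their values had been seen. Not every member under this rule has its values given. Alternatives covered the reads and cells counted, mapping quality, the gene end, the reference, antisense and far level subtracted, small RNA genes, the class limits, the model and leaving out each batch or library. The subtraction of the far level, the references without small RNA genes and of introns alone, and the level of the first 5 kb were added after seeing the data. Intervals cover counting error only, and reads per member limit the precision, with 298936 scGRO–seq reads in the last 5 kb of all members.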

Additional observations from a re-analysis of the deposited data

Results flagged for a closer look

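The level of the first 5 kb after the end, less the level of the last 5 kb of the gene, lay below 0 in every scGRO–seq batch (mean −0.547) and in every inAGTuC library (mean −0.501, or −0.594 without the Exp234 library), and above 0 in both AGTuC libraries (mean 0.406). It is listed here because the assays lie on opposite sides of 0. The difference of scGRO–seq from AGTuC was tested (exact permutation test, adjusted p = 0.0455), and AGTuC is a single batch.

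The difference in this level between the high and the low tertile of transcription level was below 0 in every scGRO–seq batch (mean −0.653) and in every inAGTuC library (mean −0.535, or −0.586 without the Exp234 library), and above 0 in both AGTuC libraries (mean 0.403). This difference between assays was not tested, nor was its part beyond the difference between assays over all members. A search for single batches or libraries far from the rest by the gap to the nearest neighbour covered 16 groups of values in scGRO–seq and inAGTuC, which were 4 measures of the profile and 4 class differences per assay, and found none. The share of sense reads on genes, by which the Exp234 library lay below the others, was not among these values, and with 4 libraries only a gap of most of the whole range is counted.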

How the results depend on the processing

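The level of the first 5 kb in scGRO–seq kept its direction against AGTuC under all alternatives run, and passed in all except those that left out a batch or library, where it ran from −0.966 to −0.935. In those runs the exact permutation p was the smallest that the remaining batches and libraries allow, so that the loss of the call was set by their number. Differences between inAGTuC and AGTuC kept their direction, and those between scGRO–seq and inAGTuC, which never passed, changed sign in some. With the far level subtracted they were 0.404 kb in readthrough length and 0.0177 in the level of the first 5 kb, and in isolated members they were 0.493 kb and 0.0293. The readthrough length of scGRO–seq against AGTuC passed with every deposited read, which adds molecules found in more than 1 library (−4.43 kb), without the 10 members with most reads in any assay (−4.06 kb), with the 5 kb before the last 5 kb as reference (−5.60 kb), with antisense reads subtracted (−6.53 kb), with libraries as replicates (−3.76 kb) and with the far level subtracted (−7.36 kb). The value with antisense reads subtracted over all members cannot be read as a length. Libraries of the same batch are not independent, so that the pass with libraries as replicates does not add to the test over batches.

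With antisense reads subtracted, the class differences were −2.66 kb for long against short genes, −21.7 kb for high against low level (no longer passed), 14.7 kb for AATAAA against neither and −20.0 kb for opposite start against isolated (now passed). Over all members this also subtracts genes of the opposite strand. Antisense reads can then outnumber sense reads after the end, so that these differences cannot be read as lengths. AATAAA against neither was 0.0804 kb in isolated members and −0.114 kb with the other reference, opposite start against isolated was 0.922 kb with the other reference, and long against short genes was 2.24 kb with the far level subtracted. The causes were not tested. With every deposited read, 2738 members were lower and 157 higher in scGRO–seq, and an exact sign-flip test over batches gave 23 higher. As a median over members, the readthrough length was 0.828 kb in scGRO–seq over the 9 batches that gave one, 1.30 kb in inAGTuC and 8.63 kb in AGTuC, and class differences had such a median in only 2 to 4 of 10 batches and are not given. Members entered these medians by their reads in the reference itself, so that the members differ between batches and assays.

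Leaving out 1 batch or library gave the following ranges. Readthrough length was −2.34 to 1.12 kb for scGRO–seq against inAGTuC, −3.87 to −3.27 kb against AGTuC and −4.78 to −1.33 kb for inAGTuC against AGTuC. The level of the first 5 kb was −0.109 to 0.0469 for scGRO–seq against inAGTuC, where the highest value of both measures was that without the Exp234 library, and −1.0 to −0.845 for inAGTuC against AGTuC. Members lower numbered 717 to 1721 and members higher 40 to 77, with the lowest of both without Exp236. These are counts and not shares, since fewer members reach 50 reads when a batch is left out. The limma fit of AGTuC was not repeated with 1 library, which leaves no residual degrees of freedom. Class differences and the sense to antisense ratio of scGRO–seq kept their direction and their side of the threshold when a batch was left out. At this depth most members could not be tested singly, since 2817 of 8709 reached 50 reads in scGRO–seq.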
